A study of Homo sapiens with 48 samples.

Results

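The neuroblastoma line NGP, which carries an amplified MYCN gene and is labelled wild type, was treated for 6 days with 8 µM STM2457 or with the solvent DMSO. Transcription was then blocked with actinomycin D at 10 µg/ml, and cells were harvested after 0, 3 or 6 h. Messenger RNA was counted in 2 libraries of each of these 6 groups, which makes 12 of the 48 libraries of the series. The members were taken from the labels: cell line NGP, 6 days, each actinomycin D time and both treatments. The comparison is how far each transcript changed between 0 and 6 h with STM2457, minus its change with DMSO, with 3 h as the middle point. The other libraries are NGP after 3 days and the line Kelly, which is also MYCN-amplified, after 3 and 6 days. NGP is 1 cell line. The labels do not say whether the 2 libraries of a group came from separate cultures, so the p-values measure the spread between these libraries and that spread may be technical. Poly(A) RNA was captured before cDNA was made with a SMART kit, so transcripts without a poly(A) tail are under-represented.

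STM2457 inhibits METTL3, the catalytic subunit of the enzyme complex that methylates adenosine at position N6 (m6A) in messenger RNA. The mark is laid down in the nucleus, mainly within long internal exons and around stop codons, and cytoplasmic readers of the YTHDF family bind it and recruit deadenylases, so many methylated mRNAs are short-lived. Actinomycin D blocks transcription, so an mRNA that is present hours later was made before the drug was added. Because values are shares of a library, a transcript that is lost more slowly than the typical mRNA takes a growing share of the library and its value rises after actinomycin D. "Lost more slowly" and "lost faster" therefore mean here that the change over 0 to 6 h, relative to the typical gene, was higher or lower in STM2457 than in DMSO at an adjusted p below 0.05.

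The 12 libraries hold 11139550 to 21942238 fragments in protein-coding genes, with 13801 to 15024 genes detected. All 10 neuroblastoma markers were counted in all 12 libraries, although TH, the first enzyme of catecholamine synthesis, was nearly absent with 1 to 47 fragments. CD3E of T cells and HBB and HBA1 of red cells had no fragment in any of them. The summed level of the 10 markers was 2893 to 2990.3 CPM (counts scaled to a common library size) in DMSO and 3591 to 3693 in STM2457 at 0 h. The 12 mesenchymal markers summed to 429.9 to 449.6 and 528 to 542 CPM. In bulk RNA of this kind, fewer cells of a type and less RNA per cell cannot be told apart.

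METTL3 mRNA itself stood at 49.2 and 57.4 CPM at 0 h, 63.8 and 56.5 at 3 h and 53.8 and 44.1 at 6 h in DMSO and at 55.8 and 55.2 CPM at 0 h, 72.97 and 64.7 at 3 h and 64.5 and 57.9 at 6 h in STM2457. The groups overlapped at 0 h and STM2457 was slightly the higher at 3 and 6 h, but the difference over 6 h did not pass the test (log2 0.26 ± 0.21, adjusted p = 0.697). The inhibitor acts on the METTL3 protein, so its mRNA is no check of the treatment. MYCN, the driver oncogene of these cells, is a short-lived transcript: it fell by 3.16 on the log2 scale in DMSO and by 3.12 in STM2457. The difference of 0.036 ± 0.079 had an adjusted p of 0.94.

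The decay of 372 of 14661 tested genes differed between STM2457 and DMSO (edgeR quasi-likelihood test, 2.54% of those tested). Of these, 199 were lost more slowly in STM2457 (1.36%) and 173 faster (1.18%). The slower set held 19 of 23 amino acid response genes, 11 of 20 tRNA synthetases and 20 of 65 histone genes. The faster set held 12 of 24 genes of cholesterol and fatty acid synthesis, 9 of 21 glycolytic genes and 7 of 23 heat shock genes. In DMSO alone 5380 genes changed against the typical gene over the same 6 h (36.7%), and in STM2457 4703 did (32.1%). The slower transcripts had a median difference of 0.87 and the faster ones of -0.59 on the log2 scale, against -0.020 over all tested genes. Most of the difference came after 3 h. For the slower transcripts the median was 0.20 over 0 to 3 h and 0.67 over 3 to 6 h, and for the faster ones -0.15 and -0.38. Over 0 to 3 h alone 11 genes passed the test (0.075%; 13 to 29 on leaving out single libraries) and over 3 to 6 h alone 210 did (1.43%). These time windows share libraries with the 6 h comparison that chose the genes, so the medians describe them and test nothing. The fits that left out single libraries tested 15599 to 15798 genes instead of 14661, so their counts are not on the same set.

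These directions are relative to the typical gene, and a gene called lost faster can have risen in both treatments, by less in STM2457. The ERCC spike-in RNAs took 0.325% and 0.329% of the fragments in DMSO at 0 h and 0.589% and 0.594% at 6 h, and 0.336% in both STM2457 libraries at 0 h and 0.461% and 0.462% at 6 h. Scaled to them, the median difference of all genes moved from -0.020 to 0.41 and 2564 genes were slower and 28 faster (17.5% and 0.191%), and scaled to long-lived transcripts it moved to 0.18, with 626 slower and 50 faster (4.27% and 0.341%). On the spike-in scale 46 genes were still called as rising over 6 h in DMSO, against 9830 as falling. In STM2457 122 were called as rising on that scale and 6797 as falling. DESeq2 on its own size factors called 250 slower and 343 faster. Scaling shifts all genes of a library by the same amount, so it leaves the order of the genes as it is and moves the position of 0. When the spike-ins were added is not given in the sources used here.

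The difference over 6 h is by construction the STM2457 effect at 6 h minus the effect at 0 h, and the same libraries enter all of these comparisons. The genes lost more slowly had a median STM2457 effect of -0.55 at 0 h, -0.25 at 3 h and 0.36 at 6 h on the log2 scale. The genes lost faster had 0.33, 0.17 and -0.23. In DMSO the slower set had a median change of -1.02 over 6 h and in STM2457 of 0.017, whereas the faster set went up by 0.73 in DMSO and by 0.18 in STM2457. At 0 h, before actinomycin D, 1172 genes differed between the treatments (7.99%), and at 6 h 1343 did (9.16%).

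**Figure D1:**
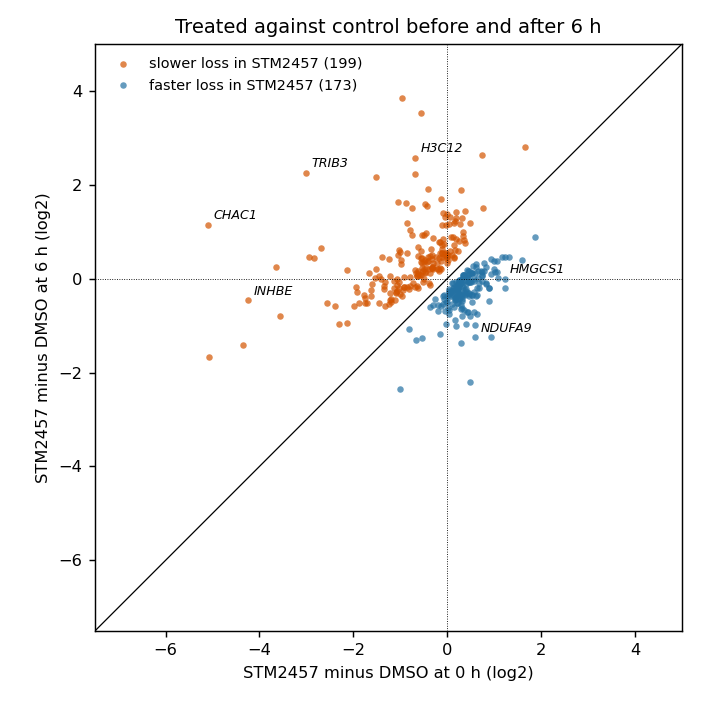
STM2457 effect (log2 of STM2457 over DMSO) at 0 h on the x axis and at 6 h of actinomycin D on the y axis, 1 point for each of the 372 called genes, from 2 libraries a group. The 199 genes lost more slowly (orange) lie above the diagonal and the 173 lost faster (blue) below it, as the test requires; the slower set is centred left of 0 at 0 h (median -0.55) and the faster set right of it (median 0.33).

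The genes of the amino acid response were the group with the largest share of transcripts lost more slowly. They are switched on by ATF4 when amino acids run short and encode amino acid transporters, enzymes of serine and asparagine synthesis and stress regulators. Of 23 tested members of this list 19 were lost more slowly and none faster, with a median difference of 1.38 against -0.020 over all genes, where 1.36% were slower. DESeq2, which called 1.71% of all genes slower and 2.34% faster, called 19 slower, and limma-voom, which called 1.08% of all genes slower and 1.04% faster, 18, both with none faster. With edgeR 22 members had an unadjusted p below 0.05. Before actinomycin D the list was low in STM2457: 22 members were lower at 0 h (3.55% of all tested genes were), with a median effect of -1.62. Over 6 h the median change was -1.51 in DMSO and 0.027 in STM2457. In DMSO most of that loss fell between 3 and 6 h, with medians of -0.32 over the first 3 h and -1.33 over the next.

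ASNS, asparagine synthetase (chromosome 7, 97851677 to 97872542, minus strand, GRCh38), stood at 283 and 266 CPM at 0 h, 352 and 332 at 3 h and 138 and 131 at 6 h in DMSO. In STM2457 it stood at 78.2 and 71.3 CPM at 0 h, 88.4 and 71.4 at 3 h and 97.8 and 90.5 at 6 h. The DMSO libraries were above the STM2457 libraries at every time, but the gap was smallest at 6 h, after the DMSO level had dropped and the STM2457 level had gone up slightly (difference over 6 h, log2 1.37 ± 0.15, adjusted p = 9.10e-11). SLC7A5, the large neutral amino acid transporter, had 444 and 475 CPM at 0 h, 493 and 484 at 3 h and 200.3 and 187 at 6 h in DMSO. With STM2457 its values were 129 and 113 CPM at 0 h, 154 and 129 at 3 h and 149.6 and 169 at 6 h. It has the smallest adjusted p of the list (log2 1.64 ± 0.13, adjusted p = 1.42e-16). PSAT1, an enzyme of serine synthesis, followed the same course, from 316 and 289.9 CPM at 0 h to 153 and 176 at 6 h in DMSO and from 101 and 101 to 153 and 151 in STM2457, with nearly equal levels at 6 h (log2 1.48 ± 0.13, adjusted p = 1.24e-14).

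Several regulators of the response had large differences. TRIB3, a pseudokinase induced by ATF4 and CHOP, stood at 63.99 and 74.7 CPM at 0 h, 8.36 and 8.66 at 3 h and 0.289 and 0.435 at 6 h in DMSO and at 9.82 and 7.48 CPM at 0 h, 0.508 and 2.01 at 3 h and 0.372 and 3.28 at 6 h in STM2457. One of the STM2457 libraries at 6 h lay within the DMSO range and the other far above it, and the call (log2 5.26 ± 0.87, adjusted p = 9.85e-06) rests on that library: TRIB3 had 3.08 and was not called without STM2457 6 h replicate 2. ATF5, a transcription factor of the same pathway, had 145 and 192 CPM at 0 h and 18.998 and 29.3 at 6 h in DMSO, and in STM2457 6.64 and 3.32 at 0 h and 5.94 and 9.47 at 6 h (log2 3.4 ± 0.38, adjusted p = 1.17e-10). Of the exon bases of ATF5 19.5% overlap another gene. DDIT4, an inhibitor of mTORC1, was lost quickly in both treatments, with 206 and 222 CPM at 0 h, 10.1 and 11.1 at 3 h and 3.22 and 4.13 at 6 h in DMSO and 19.4 and 16.7 CPM at 0 h, 3.89 and 4.09 at 3 h and 1.61 and 2.72 at 6 h in STM2457 (log2 2.77 ± 0.41, adjusted p = 5.59e-07). INHBE, a secreted TGF-beta family subunit, had 101 and 115 CPM at 0 h, 28.5 and 23.2 at 3 h and 6.97 and 2.68 at 6 h in DMSO and 6.64 and 4.68 CPM at 0 h, 5.08 and 1.46 at 3 h and 3.901 and 3.19 at 6 h in STM2457 (log2 3.78 ± 0.59, adjusted p = 2.92e-06).

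The following members were named after their values were seen. SLC7A11, the cystine transporter, had 84.2 and 69.1 CPM at 0 h, 74.7 and 85.2 at 3 h and 15.4 and 10.2 at 6 h in DMSO and 4.03 and 3.51 CPM at 0 h, 3.05 and 2.71 at 3 h and 5.39 and 4.22 at 6 h in STM2457, where it was low throughout (log2 2.93 ± 0.40, adjusted p = 1.08e-07). CHAC1, which degrades glutathione, fell in DMSO from 43.9 and 40.2 CPM at 0 h to 7.595 and 4.53 at 3 h and 0.866 and 0 at 6 h, and was at 1.53 and 0.911 CPM at 0 h, 0.508 and 0 at 3 h and 0.619 and 1.59 at 6 h in STM2457. With 0.619 and 1.59 CPM against 0.866 and 0 at 6 h, its fitted value of 6.24 ± 1.02 rests on very few fragments at the end point and ranged from 5.39 to 12.18 on leaving out single libraries. ATF4 itself changed in another order: it dropped early in DMSO, from 483 and 517 CPM to 149 and 126 at 3 h, and stood at 224 and 248 at 6 h, against 236 and 228 CPM at 0 h, 191 and 189 at 3 h and 184 and 159 at 6 h in STM2457. Its difference was 1.57 over 0 to 3 h and -0.92 over 3 to 6 h, which add up to 0.65 ± 0.12. DDIT3, which encodes CHOP, did not pass the test (log2 1.94 ± 0.71, adjusted p = 0.166), and 39.6% of its exon bases overlap another gene.

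ATF4 binds with C/EBP partners to a composite element that is often written TGATGNAA. This motif, in either orientation, was searched in the 250 bases before the start of each gene in the RefSeq promoter table (GRCh38.p14). It was found in 870 of 27305 promoters (3.19%), in 171 of 11672 promoters of tested genes (1.47%), in 9 of 157 of genes lost more slowly (5.73%) and in 2 of 142 of genes lost faster (1.41%). The 48 bases around it are shown for 4 of those 9 genes, because they are members of the amino acid response, tRNA synthetase and short-lived lists described here. They are written 5′ to 3′ on the strand of the gene with the motif in capitals; where the capitals read TTGCATCA the motif lies on the opposite strand.
CHAC1, chr15:40953242-40953289, plus strand: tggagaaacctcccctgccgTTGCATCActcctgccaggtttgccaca
ATF3, chr1:212565196-212565243, plus strand: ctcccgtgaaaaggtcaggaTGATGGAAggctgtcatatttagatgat
ASNS, chr7:97872449-97872496, minus strand: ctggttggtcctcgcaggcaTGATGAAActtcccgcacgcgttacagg
AARS1, chr16:70289666-70289713, minus strand: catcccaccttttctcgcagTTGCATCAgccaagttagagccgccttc
The matches lie 209, 191, 68 and 187 bases before the start of the gene in the RefSeq table, in the same order. The gene models the authors counted can start elsewhere. The ASNS window lies inside the counted ASNS model, not before it. Of the 18 amino acid response genes with a promoter in the table only ASNS and CHAC1 hold the motif in this window. A match describes these letters and shows no binding.

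Cytoplasmic aminoacyl-tRNA synthetases, which load tRNAs with amino acids and include further ATF4 targets, were shifted in the same direction. Of 20 tested, 11 were lost more slowly and none faster (DESeq2 11 and limma-voom 11 slower, none faster; 12 had an unadjusted p below 0.05), with a median difference of 0.38. GARS1, the glycyl-tRNA synthetase (chromosome 7, 30594838 to 30634033, plus strand), stood at 536 and 578 CPM at 0 h, 586 and 609.8 at 3 h and 234 and 257 at 6 h in DMSO and at 221 and 216 CPM at 0 h, 251 and 222 at 3 h and 207 and 233 at 6 h in STM2457. Its DMSO level dropped after 3 h to near the STM2457 level, which stayed between 207 and 251 CPM (log2 1.19 ± 0.11, adjusted p = 5.12e-14). AARS1 (log2 0.95 ± 0.12) and MARS1 (0.91 ± 0.11) followed, the last with 12.4% of its exon bases shared with another gene. The called members ranged from 0.28 for LARS1 to 1.34 for CARS1. Among the others, HARS1 (0.18), KARS1 (-0.15), QARS1 (-0.20), RARS1 (-0.017) and VARS1 (-0.051) did not pass the test. At 0 h 13 of the 20 were lower in STM2457 (3.55% of all genes were). Over all genes 1.36% were lost more slowly and 1.18% faster.

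**Figure D2:**
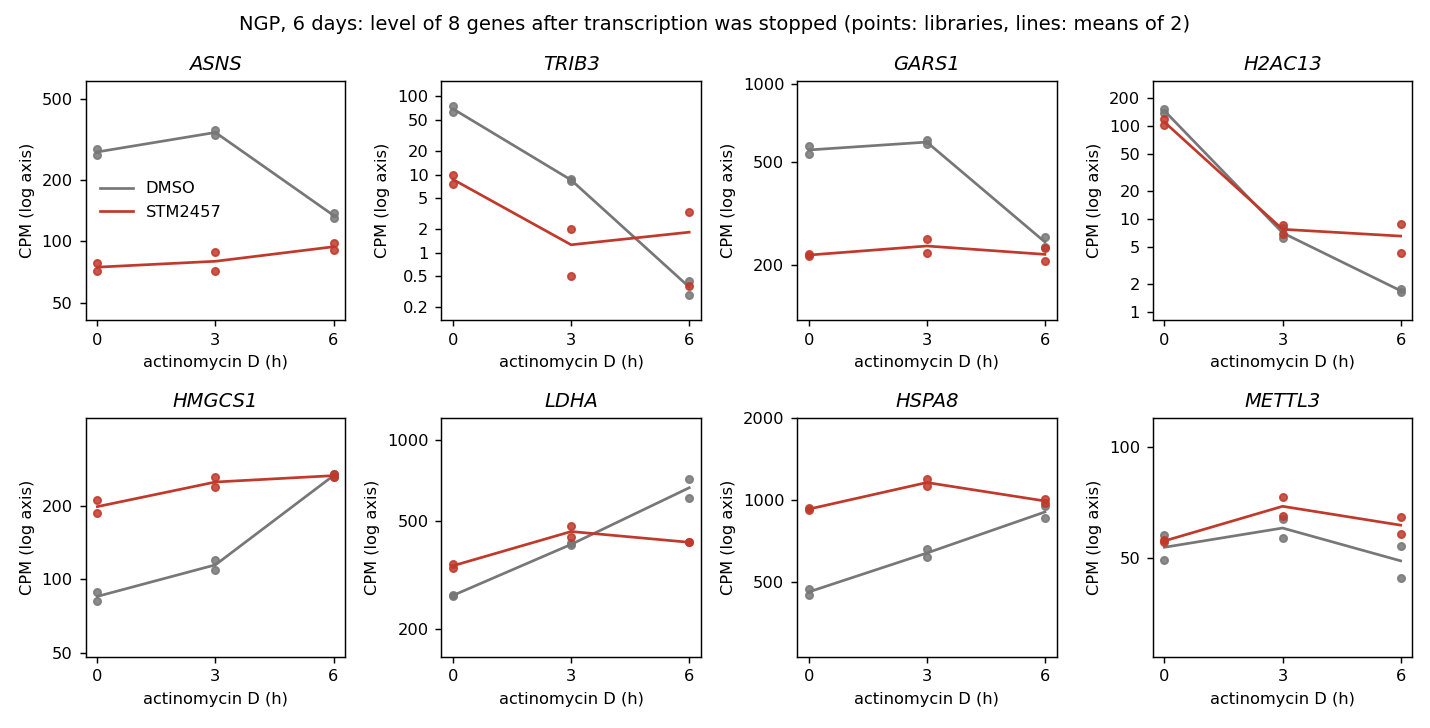
Level in CPM (log axis) of 8 transcripts over 0, 3 and 6 h of actinomycin D; points are the 2 libraries of each group and lines their means, for DMSO and STM2457. ASNS and GARS1 drop between 3 and 6 h in DMSO only, H2AC13 is lost in both with a higher end point in STM2457, and the lines of HMGCS1, LDHA and HSPA8 rise further in DMSO; METTL3 stays between 44.1 and 72.97 CPM.

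Translation factors were mixed. Of 56 initiation factors and regulators 5 were lost more slowly and 1 faster, around a median of 0.0043. Over all genes 1.36% were slower and 1.18% faster. EIF2S2, the beta subunit of eIF2, had 245 and 241 CPM at 0 h, 213 and 230.5 at 3 h and 102 and 89.5 at 6 h in DMSO and 105 and 104 CPM at 0 h, 128 and 112 at 3 h and 105 and 94.8 at 6 h in STM2457, so that the groups met at 6 h (log2 1.28 ± 0.14, adjusted p = 1.61e-10). EIF1, which guards start codon choice, and EIF4EBP1, a repressor of cap binding, differed by 0.81 ± 0.11 and 0.72 ± 0.12. EIF4A1 and EIF3A were also slower and EIF3B faster. Of 85 cytoplasmic ribosomal proteins 1 was slower and 1 faster, close to the share over all genes. The slower one, RPS29, had a difference of 2.68 ± 0.61, but its libraries disagreed within groups, with 110.4 and 465 CPM at 0 h, 602 and 141 at 3 h and 150.3 and 146 at 6 h in DMSO and 180.4 and 96.6 CPM at 0 h, 693 and 1382 at 3 h and 746 and 171 at 6 h in STM2457. It has many near-identical pseudogene copies, so its counts are uncertain.

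Other genes lost more slowly lay outside these lists. TSC22D3, a glucocorticoid-induced leucine zipper protein, stood at 45.6 and 40.1 CPM at 0 h, 48.5 and 53.1 at 3 h and 15.4 and 16.4 at 6 h in DMSO and at 9.71 and 9.69 CPM at 0 h, 13.1 and 15.1 at 3 h and 17.8 and 18.005 at 6 h in STM2457, so that the groups came close at 6 h (log2 2.32 ± 0.40, adjusted p = 2.62e-05). FBLL1, a fibrillarin-like gene, had 20.8 and 23.1 CPM at 0 h and 7.79 and 3.69 at 6 h in DMSO, and in STM2457 10.6 and 13.4 at 0 h and 13.995 and 21.8 at 6 h (log2 2.49 ± 0.45, adjusted p = 6.97e-05). DDR2, a collagen receptor kinase, had close replicates, with 578 and 546 CPM at 0 h, 648 and 651 at 3 h and 313 and 327 at 6 h in DMSO and 272 and 263 CPM at 0 h, 316 and 287 at 3 h and 305 and 332 at 6 h in STM2457, with overlap at 6 h only (log2 1.06 ± 0.095, adjusted p = 2.19e-14).

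A list of transcripts known to be short-lived had 2 called members. Of 25 immediate early and AU-rich transcripts 2 were lost more slowly and none faster in the edgeR, DESeq2 and limma-voom fits. With edgeR 1.36% of all genes were slower and 1.18% faster. An unadjusted p below 0.05 was found for 5 members. The list's median change over 6 h in DMSO was -1.90. Its median difference between the treatments was -0.029. This median moved with the setting, to 0.25 with the replicate block, 0.12 with limma-voom and 0.11 with the libraries of the same duration only, and to between -0.14 and 0.31 without single libraries. The called ones were JUN, an AP-1 subunit, and ATF3, a stress-induced repressor. JUN had 81.2 and 99.5 CPM at 0 h, 14.7 and 13.1 at 3 h and 7.599 and 9.49 at 6 h in DMSO and 31.6 and 37.3 CPM at 0 h, 13.04 and 11.6 at 3 h and 14.1 and 9.096 at 6 h in STM2457 (log2 1.85 ± 0.37, adjusted p = 3.98e-04). The treatments were apart at 0 h and overlapped at 6 h. ATF3 had 47.8 and 49.3 CPM at 0 h and 2.07 and 2.101 at 6 h in DMSO, and in STM2457 6.19 and 7.48 at 0 h and 2.91 and 2.72 at 6 h (log2 3.26 ± 0.65, adjusted p = 4.43e-04).

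Part of the histone transcripts were lost more slowly. Of 65 tested, 20 were slower and none faster by edgeR, with a median difference of 0.66; DESeq2 called 10 and limma-voom 7, none faster, and 36 had an unadjusted p below 0.05. Leaving out single libraries gave 19 to 26 slower and 0 to 4 faster, with 4 faster without DMSO 6 h replicate 1, and 1 was faster with no filter on low counts. Replication-dependent histone mRNAs end in a conserved stem-loop instead of a poly(A) tail and are degraded when DNA synthesis stops. In these poly(A) libraries the list had the lowest median change in DMSO of the lists examined, -4.51 over 6 h, against -3.92 in STM2457. At 0 h 19 members were lower in STM2457 and 3 higher (3.55% and 4.45% of all genes). At 6 h 15 were higher and 1 lower (4.86% and 4.3%). The stem-loop GGCTCTTTTNAGAGCC was found on the sense strand of 45 of the 65 canonical transcripts and of 47 of 14441 tested genes with a transcript (0.325%, GENCODE 44). It is shown in capitals, 5′ to 3′ on the strand of the gene, for the 3 members with the smallest p.
H2AC13, chr6:27808640-27808667, plus strand: aaccaaaGGCTCTTTTCAGAGCCaccta
H3C12, chr6:27890315-27890342, minus strand: ttccaaaGGCTCTTTTCAGAGCCactta
H2BC12, chr6:27146361-27146388, minus strand: ccccaaaGGCTCTTTTAAGAGCCactta
Of the 45 members with the stem-loop 14 were lost more slowly and of the 20 without it 6 were, with median differences of 0.66 and 0.62, so slower members were found in both kinds. The gene models the authors counted end before the stem-loop for H3C12 and H2BC12.

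H2AC13, a core histone H2A gene (chromosome 6, 27808199 to 27808701, plus strand), stood at 151 and 139 CPM at 0 h, 6.22 and 7.93 at 3 h and 1.64 and 1.74 at 6 h in DMSO and at 118 and 102 CPM at 0 h, 8.58 and 6.87 at 3 h and 4.33 and 8.72 at 6 h in STM2457. STM2457 was the lower at 0 h, the groups overlapped at 3 h, and STM2457 was the higher at 6 h (log2 2.31 ± 0.33, adjusted p = 4.04e-07). H2BC12, of the H2B family, was more abundant and showed the same order at 6 h, 19.1 and 20.4 CPM in DMSO and 30.03 and 30.9 in STM2457, after 424 and 491 in DMSO and 359 and 358 in STM2457 at 0 h (log2 0.98 ± 0.15, adjusted p = 3.39e-06). H3C12 ended at 0.914 and 0.362 CPM in DMSO and 4.09 and 4.03 in STM2457 (log2 3.25 ± 0.54, adjusted p = 1.11e-05), with 44.6% of its exon bases shared with another gene. H4C9 ended at 2.93 and 2.97 CPM in DMSO and 6.502 and 10.97 in STM2457 (log2 1.97 ± 0.43). The H4C9 call was lost with DESeq2 and limma-voom, and that of H2AC13 with limma-voom. With a linear time term the calls of H2AC13, H2BC12, H3C12, H4C9 and H1-2 were all lost. The linker histone H1-2, named after its values were seen, went from 975 and 1099.8 CPM to 58.2 and 44.05 in DMSO and from 690.2 and 743 to 57.96 and 71.4 in STM2457, where the 6 h libraries of the treatments overlapped (log2 0.86 ± 0.14, adjusted p = 1.47e-05). The replication-independent H1-10 (0.49), whose mRNA is polyadenylated, was also slower, whereas H2AZ1 (0.042) and H2AZ2 (0.12) did not pass the test. Histone genes are near-identical copies of each other, so the authors' counting could split reads between them.

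Transcripts made in the mitochondrion encode subunits of the respiratory chain, and several were lost more slowly by small amounts. Of 13 tested 6 were slower and none faster (DESeq2 5, limma-voom 6; 11 had an unadjusted p below 0.05), with a median difference of 0.19. MT-ND2 had 3047 and 2850.4 CPM at 0 h, 1500.1 and 1522 at 3 h and 1115 and 1030.2 at 6 h in DMSO and 3244 and 3487 CPM at 0 h, 2079 and 2167 at 3 h and 1814 and 2066 at 6 h in STM2457. STM2457 was the higher at every time, with the widest gap at 6 h (log2 0.66 ± 0.066, adjusted p = 1.95e-12). MT-ND1 (0.46 ± 0.063) and MT-CYB (0.39 ± 0.051) followed, while MT-CO1, the most abundant, had -0.090 and did not pass the test. The list had 3 slower members when a trend with gene length was removed, where 1.3% of all genes were slower. In the main fit 1.36% of all genes were slower and 1.18% faster. Mitochondrial ribosomal proteins, encoded in the nucleus, had 3 of 77 slower and none faster (DESeq2 3 slower and 2 faster). None was called without DMSO 0 h replicate 2, and 1 without STM2457 0 h replicate 2 or STM2457 6 h replicate 2. MRPS2 had 43.1 and 51.9 CPM at 0 h, 34.2 and 36.3 at 3 h and 14.6 and 15.1 at 6 h in DMSO and 57.6 and 51.1 CPM at 0 h, 52.5 and 64.2 at 3 h and 34.6 and 38.1 at 6 h in STM2457 (log2 1.09 ± 0.27, adjusted p = 0.0075). MRPS2 had 0.95 and was not called without DMSO 0 h replicate 2.

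FEN1, the flap endonuclease of DNA replication, was higher in STM2457 at every time, with 77.1 and 75.1 CPM at 0 h, 54.1 and 50.5 at 3 h and 40.02 and 44.7 at 6 h in DMSO and 123 and 135 CPM at 0 h, 142 and 132 at 3 h and 122 and 118 at 6 h in STM2457, and was lost more slowly (log2 0.74 ± 0.16, adjusted p = 0.00141). It was the only one of 25 DNA replication genes that was slower, while UHRF1 and MCM4 were faster. Over all genes 1.36% were slower and 1.18% faster. Of the 25 replication genes 17 had a difference below 0, with a median of -0.062. MCM4 was not called without STM2457 0 h replicate 2 or STM2457 6 h replicate 2, with -0.30 to -0.24 over the 12 refits without 1 library. With ERCC scaling, which moves all genes up, 9 of the 25 were slower and none faster, and MCM4 had 0.15. Zinc finger genes, the largest family of DNA-binding factors, had 6 slower and 2 faster of 446, close to the share over all genes (1 faster without DMSO 0 h replicate 2, DMSO 6 h replicate 2, STM2457 0 h replicate 2 or STM2457 6 h replicate 2), with a median of 0.040. ZNF45 had 24.3 and 24.2 CPM at 0 h, 8.46 and 8.598 at 3 h and 3.94 and 6.67 at 6 h in DMSO and 25.1 and 19.2 CPM at 0 h, 15.9 and 17.1 at 3 h and 14.3 and 19.97 at 6 h in STM2457; the treatments were apart at 3 and 6 h and overlapped at 0 h (log2 1.83 ± 0.39, adjusted p = 0.00139). ZNF768 differed by 1.26 ± 0.30. ZNF768 had 0.91 and was not called without DMSO 6 h replicate 2.

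Many genes of cholesterol and fatty acid synthesis, which the SREBP factors control, were lost faster. Of 24 tested 12 were lost faster and none more slowly (DESeq2 15 and limma-voom 12 faster, none slower; 18 had an unadjusted p below 0.05), with a median difference of -0.63 where 1.18% of all genes were faster. At 0 h 12 members were higher in STM2457 and 1 lower (4.45% and 3.55% of all genes). Over 6 h the median change of the list was 0.52 in DMSO and 0.11 in STM2457. HMGCS1, which makes HMG-CoA (chromosome 5, 43287470 to 43313512, minus strand), rose from 88.6 and 81.9 CPM to 120.3 and 109 and 271 and 262 in DMSO and stood at 211 and 186 CPM at 0 h, 263 and 239 at 3 h and 271 and 262 at 6 h in STM2457. The STM2457 libraries were above DMSO at 0 and 3 h and overlapped at 6 h (log2 -1.22 ± 0.12, adjusted p = 2.39e-12). INSIG1, which holds the SREBP escort protein back, was lost in STM2457 from 99.9 and 113 to 34.5 and 21.7 CPM and went from 70.8 and 70.7 to 60.1 and 51.8 in DMSO (log2 -1.58 ± 0.24, adjusted p = 1.52e-06).

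SQLE, squalene epoxidase, which was named after its values were seen, differed by -0.99 ± 0.17. ACAT2, the cytosolic thiolase that feeds the pathway, had 34.4 and 43.6 CPM at 0 h, 48.1 and 58.9 at 3 h and 75.8 and 76.3 at 6 h in DMSO and 63.2 and 80.9 CPM at 0 h, 76.6 and 65.2 at 3 h and 53.6 and 56.5 at 6 h in STM2457 (log2 -1.35 ± 0.19, adjusted p = 3.72e-07), with 22.2% of its exon bases shared with another gene. FASN (-0.32) and SCD (-0.39) of fatty acid synthesis were also faster, and SREBF1 (0.20) did not pass the test. Scaled to the ERCC spike-in RNAs instead of the typical gene, the list had 2 members slower and 4 faster.

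Several glycolytic transcripts, most of which are long-lived, were lost faster too. Of 21 tested 9 were faster and none slower (DESeq2 12 and limma-voom 9 faster, none slower; 13 had an unadjusted p below 0.05), with a median of -0.36. The median STM2457 effect was 0.063 at 0 h, when 3 members were higher and 3 lower, and -0.43 at 6 h, when 14 were lower. Over all genes 4.45% were higher and 3.55% lower at 0 h, and 4.3% lower at 6 h. In decay 1.18% of all genes were faster. ENO1, enolase, went up from 2063 and 2026 CPM to 5132 and 5256 in DMSO and from 1995 and 1992 to 3325 and 3167 in STM2457, with 3165 and 3181 in DMSO and 2630.2 and 2666 in STM2457 at 3 h. The libraries of a group lay close together, and the treatments were near each other at 0 h and apart at 3 and 6 h (log2 -0.64 ± 0.049, adjusted p = 1.75e-17). LDHA, lactate dehydrogenase, had 264 and 267 CPM at 0 h, 414 and 407 at 3 h and 721 and 612 at 6 h in DMSO and 348 and 337 CPM at 0 h, 479 and 438 at 3 h and 417 and 419 at 6 h in STM2457 (log2 -1.04 ± 0.094, adjusted p = 3.33e-14). TPI1, triosephosphate isomerase, went from 336 and 340.1 to 844 and 860.2 CPM in DMSO and from 439 and 447 to 670.5 and 689.5 in STM2457, so that it started higher and ended lower with STM2457 (log2 -0.72 ± 0.080, adjusted p = 1.39e-10). HK1 (-0.24), HK2 (-0.042) and SLC2A1 (-0.36) did not pass the test. A list of 20 long-lived housekeeping transcripts, which holds several of these genes, had 12 faster and none slower, with a median of -0.25; scaled to the ERCC RNAs its median was 0.17 with 9 slower and 3 faster, and that of the glycolytic list 0.067 with 4 faster.

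Chaperones fold proteins in the cytosol and the endoplasmic reticulum, and some of their transcripts were lost faster. Of 23 heat shock genes 7 were faster and 1 slower, with a median of -0.26. Over all genes 1.18% were faster and 1.36% slower. At 0 h 10 of the heat shock genes were higher in STM2457 (4.45% of all genes were). HSP90AA1, the inducible HSP90, had the smallest adjusted p of all named genes: 1291 and 1265 CPM at 0 h, 1935 and 1857 at 3 h and 3678 and 3775 at 6 h in DMSO and 2173 and 2124 CPM at 0 h, 3019.9 and 3006 at 3 h and 3945 and 3877 at 6 h in STM2457. It went up in both treatments, from a higher start with STM2457, and the gap was narrow at 6 h (log2 -0.68 ± 0.044, adjusted p = 3.85e-21). HSPA8, the constitutive HSC70, had 474 and 448 CPM at 0 h, 661 and 619.9 at 3 h and 954 and 859.9 at 6 h in DMSO and 923 and 935 CPM at 0 h, 1198 and 1129 at 3 h and 1011 and 979 at 6 h in STM2457 (log2 -0.88 ± 0.071, adjusted p = 2.34e-16). HSPA1B, an inducible HSP70 nearly identical to HSPA1A and so uncertain in its counts, differed by -1.20 ± 0.26. The exception was HSPA9, the mitochondrial HSP70, which was lost more slowly (log2 0.44 ± 0.071, adjusted p = 6.37e-06). Of 20 endoplasmic reticulum chaperones and quality control genes 6 were faster and 1 slower. HSP90B1 (-0.56 ± 0.082), CALR (-0.58 ± 0.091) and HSPA5 (-0.69 ± 0.12) were faster, while HERPUD1 (1.33), which takes part in degradation of misfolded proteins, was slower. ERCC scaling reversed the medians to 0.17 and 0.29, with 8 and 7 slower and 3 and 0 faster.

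Some mitotic transcripts were lost faster, and the list's median was low. Of 25 tested 24 had a difference below 0, with a median of -0.46. With edgeR 5 were called faster, where 1.18% of all genes were (DESeq2 12, limma-voom 2, scaling to long-lived transcripts 0). An unadjusted p below 0.05 was found for 17. Leaving out single libraries gave 2 to 7 faster, with 2 without DMSO 0 h replicate 2 and 3 without STM2457 0 h replicate 1, STM2457 6 h replicate 1 or STM2457 6 h replicate 2. At 0 h 21 of them were higher in STM2457 (4.45% of all genes were). UBE2C, the ubiquitin-conjugating enzyme of the anaphase-promoting complex, had 39.97 and 34.9 CPM at 0 h, 53.1 and 56.7 at 3 h and 67.3 and 68.5 at 6 h in DMSO and 58.6 and 61.2 CPM at 0 h, 82.9 and 77.7 at 3 h and 63.97 and 63.4 at 6 h in STM2457, so the treatments were apart at 0 and 3 h and close at 6 h, where DMSO was the higher (log2 -0.77 ± 0.18, adjusted p = 0.0055). UBE2C had -0.67 and was not called without DMSO 0 h replicate 2. CCNB2, a cyclin of mitotic entry, differed by -0.63 ± 0.17 and BUB1B, a spindle checkpoint kinase, by -0.46 ± 0.12. CCNB2 was not called without DMSO 0 h replicate 1, DMSO 0 h replicate 2, DMSO 6 h replicate 2, STM2457 0 h replicate 2 or STM2457 6 h replicate 2, with -0.73 to -0.52 over the 12 refits without 1 library. BUB1B was not called without DMSO 0 h replicate 1, STM2457 0 h replicate 1 or STM2457 6 h replicate 1, with -0.50 to -0.42 over the 12 refits without 1 library. NDC80, a kinetochore protein, differed by -1.36 ± 0.38. NDC80 was not called without DMSO 0 h replicate 2, DMSO 6 h replicate 1, STM2457 0 h replicate 2, STM2457 6 h replicate 1 or STM2457 6 h replicate 2, with -1.82 to -1.02 over the 12 refits without 1 library.

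Nuclear-encoded subunits of oxidative phosphorylation leaned the same way, with a median of -0.23, which ERCC scaling turned to 0.19. Where 1.18% of all genes were faster, 4 of 80 subunits were, and none was slower (DESeq2 9 and limma-voom 1 faster). Of the subunits 20 had an unadjusted p below 0.05. There was 1 faster without DMSO 6 h replicate 2 and 2 without STM2457 0 h replicate 1, STM2457 6 h replicate 1 or STM2457 6 h replicate 2. NDUFA9, a complex I subunit, had the lowest value of the named genes: 12.1 and 9.92 CPM at 0 h, 10.2 and 12.7 at 3 h and 14.8 and 11.4 at 6 h in DMSO and 13.2 and 19.97 CPM at 0 h, 16.3 and 15.5 at 3 h and 5.14 and 6.002 at 6 h in STM2457, with both STM2457 libraries lowest at 6 h (log2 -1.83 ± 0.46, adjusted p = 0.0117). NDUFA9 was not called without DMSO 0 h replicate 2, DMSO 6 h replicate 1, STM2457 0 h replicate 2 or STM2457 6 h replicate 1, with -2.10 to -1.50 over the 12 refits without 1 library. The mitochondrially encoded and nuclear subunits of the respiratory chain thus had medians of opposite sign, 0.19 and -0.23, on this scale; the difference between the lists was not tested. Under ERCC scaling both were above 0.

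PHOX2A and GATA3, lineage factors of the adrenergic neuroblastoma state, were lost faster. PHOX2A, a homeodomain factor of sympathetic neurons, had 117 and 131 CPM at 0 h, 68.6 and 63.9 at 3 h and 29.6 and 30.5 at 6 h in DMSO and 169.8 and 167 CPM at 0 h, 69.9 and 64.2 at 3 h and 20.9 and 15.3 at 6 h in STM2457. It started higher and ended lower with STM2457, with no overlap at either time (log2 -1.15 ± 0.18, adjusted p = 2.91e-06). GATA3, another such factor, started at 362 and 353 CPM in DMSO and 348 and 356 in STM2457, which overlap, and ended at 152 and 156 and 112 and 105, which do not (log2 -0.48 ± 0.12, adjusted p = 0.0104). Of the 16 core factors tested 2 were faster and 1 slower (1.18% and 1.36% of all genes), around a median of 0.032.

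Other genes lost faster had mixed functions. RGS4, which shortens G protein signals, held its level in DMSO and was lost in STM2457, with 63.9 and 63.4 CPM at 0 h, 57.3 and 57.8 at 3 h and 81.5 and 74.1 at 6 h in DMSO and 75.2 and 82.2 CPM at 0 h, 52.7 and 48.9 at 3 h and 35.9 and 24.1 at 6 h in STM2457 (log2 -1.67 ± 0.19, adjusted p = 1.61e-10). ZSWIM6, a zinc finger protein of neural development, went from 61.2 and 52.1 to 22.2 and 25.4 CPM in DMSO and from 89.8 and 85.2 to 12.4 and 16.1 in STM2457 (log2 -1.37 ± 0.25, adjusted p = 1.18e-04). SLIT3, a secreted axon guidance cue, rose from 95.3 and 108 to 190.0 and 189 in DMSO and stood at 239 and 266 CPM at 0 h, 209.7 and 202 at 3 h and 271 and 250.3 at 6 h in STM2457 (log2 -0.85 ± 0.10, adjusted p = 3.03e-09). UHRF1, which maintains DNA methylation, differed by -0.59 ± 0.11, ARID1A, a SWI/SNF subunit, by -0.58 ± 0.11, GNL3, a nucleolar GTPase, by -0.64 ± 0.15, and NPM1, the nucleolar chaperone, by -0.36 ± 0.052, which ERCC scaling turned to 0.063. GAS2L3 (-1.43 ± 0.37), CABP7 (-1.34 ± 0.39), SAMD11 (-1.29 ± 0.29) and HUNK (-1.26 ± 0.33) were called with all libraries. GAS2L3 was not called without DMSO 6 h replicate 1 or STM2457 0 h replicate 2, with -1.68 to -1.10 over the 12 refits without 1 library. CABP7 was not called without DMSO 0 h replicate 1, DMSO 0 h replicate 2, DMSO 6 h replicate 2, STM2457 0 h replicate 1, STM2457 0 h replicate 2, STM2457 6 h replicate 1 or STM2457 6 h replicate 2, with -1.56 to -1.08 over the 12 refits without 1 library. SAMD11 had -0.76 and was not called without DMSO 6 h replicate 2. HUNK was not called without DMSO 0 h replicate 1, DMSO 6 h replicate 1, STM2457 0 h replicate 1 or STM2457 6 h replicate 2, with -1.60 to -0.99 over the 12 refits without 1 library.

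**Figure D3:**
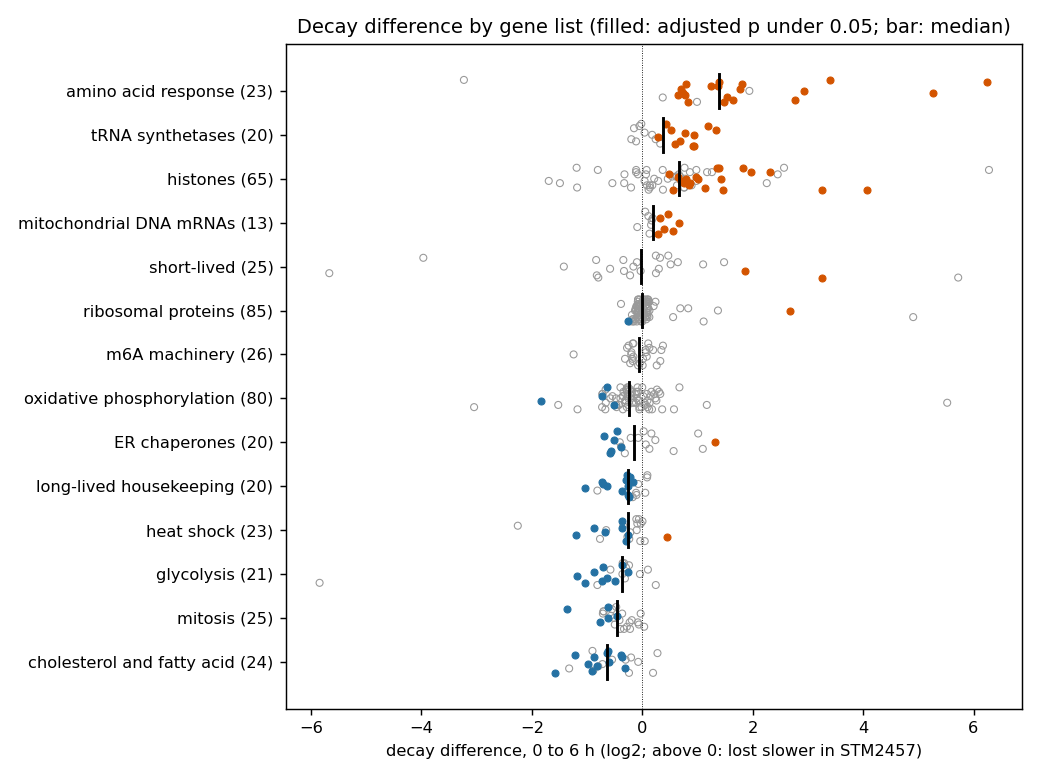
Decay difference (log2, STM2457 minus DMSO, 0 to 6 h) of the members of 14 gene lists; each point is a gene, filled where the adjusted p is below 0.05, and the bar is the list's median. Amino acid response (median 1.38), histone (0.66) and tRNA synthetase genes (0.38) lie to the slower side and cholesterol (-0.63), mitosis (-0.46) and glycolysis genes (-0.36) to the faster side; under ERCC scaling the medians of the last 3 become -0.20, -0.032 and 0.067.

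Several machineries that act on mRNA had no called member. Of 26 writers, erasers and readers of m6A none was called by edgeR (3 had an unadjusted p below 0.05; DESeq2 and limma-voom each called 1 faster). Of 42 genes of deadenylation, decapping and exonucleolytic decay none was called (10 with an unadjusted p below 0.05; DESeq2 1 slower and 1 faster, limma-voom none), and of 35 proteasome genes none was (8 with such a p; DESeq2 1 slower and 2 faster, limma-voom none). Of 26 HOX genes 3 had an unadjusted p below 0.05 and none was called by edgeR or limma-voom, while DESeq2 called 2 slower. Of 52 protocadherins 2 had such a p and none was called by any of these tools. None of 19 interferon response genes had such a p or a call by any of them. Their medians lay between -0.060 for the m6A genes and 0.15 for the HOX genes.

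Transcript structure is given as a description of the called sets, without a test. Single-exon genes made up 35 of 199 slower genes (17.6%), 4 of 173 faster ones (2.31%) and 2.73% of all tested genes. In the quintile of genes with the fewest exons, 1 to 5 after merging overlapping exons, 2.39% were slower and 0.716% faster, against 1.36% and 1.18% over all; in the decile with 1 to 3 exons the shares were 3.55% and 0.477%. Replication-dependent histone genes, which lack introns, are among them. The stability of a transcript in another set of libraries also went with the direction. Where DMSO-treated NGP cells had lost most after 3 days of culture, the most-lost quintile had 1.91% slower and 0.682% faster genes, and the most stable quintile 0.955% slower and 2.11% faster. The most stable decile had 0.545% slower and 1.09% faster, and the next 1.36% and 3.14%. These classes also differed in abundance, with median CPM of 3.85 in the most-lost quintile and 1.88 and 58.3 in these 2 deciles. In the shortest decile of 3′ UTRs 3.12% were slower and 0.831% faster, but in the next-shortest decile 0.762% were slower and 1.66% faster, so that the shortest quintile had 1.94% and 1.25%. The pentamer GGACT, the most common form of the m6A consensus, occurred at a median of 0.83 per kb in the canonical transcripts of both sets and at 0.93 per kb over all genes. Calls were also more frequent among abundant transcripts, with 3.89% slower and 4.43% faster in the most abundant quintile and 0.0341% slower and none faster in the least abundant one.

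**Figure D4:**
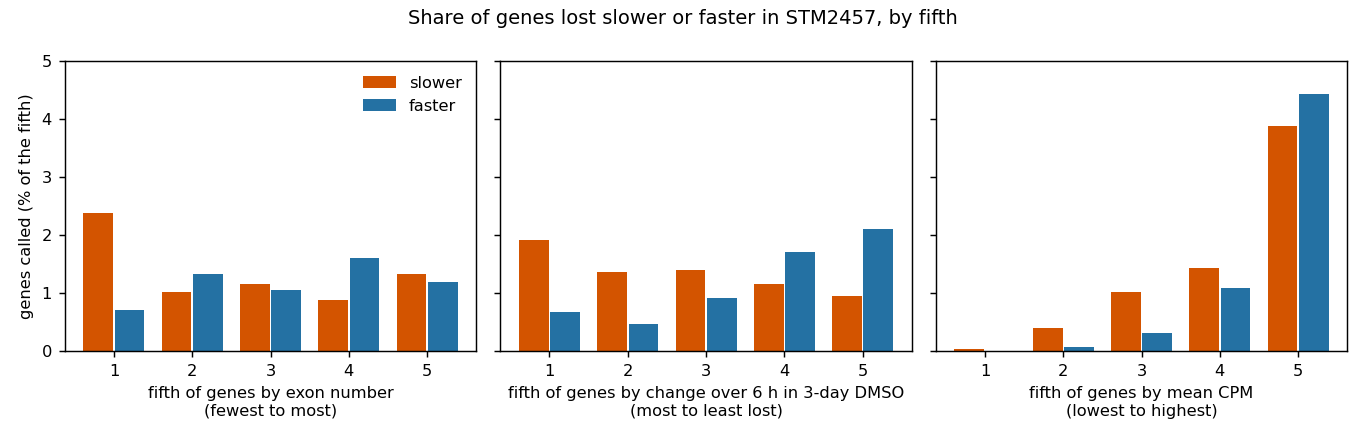
Share of genes called slower (orange) and faster (blue), in percent, in quintiles of tested genes ordered by the number of exons, by the change in DMSO at 3 days and by mean CPM; bars start at 0. The quintile with the fewest exons has 2.39% slower against 0.716% faster, and the most abundant quintile has the most calls of both kinds (3.89% and 4.43%).

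The same comparison in NGP cells treated for 3 days, which shares no library with this one, called 103 genes (0.703%; 67 slower, 36 faster). Of the 199 genes slower at 6 days 16 were called slower at 3 days (0.457% of all genes were), which is 16 of the 67 there, and 4 were called faster (0.246%). Of the 173 faster at 6 days 1 was called faster at 3 days and 3 slower. Across 14661 genes, which are not independent of each other, the differences at 6 and 3 days had a Pearson correlation of 0.026 and a Spearman correlation of 0.067, as a description. The difference between the durations itself passed the test for 152 genes (1.04%), with 94 higher and 58 lower at 6 days; without DMSO 6 h replicate 1 it was 247. Of the amino acid response genes 17 of 23 were higher at 6 days (0.641% of all genes) and none lower, with a median at 3 days of -0.083, and 10 of 20 tRNA synthetases, 8 of 13 mitochondrially encoded and 7 of 65 histone transcripts were higher. Of the cholesterol genes 6 were lower at 6 days (0.396% of all genes), of the glycolytic genes 6 and of the heat shock genes 6, with 1 heat shock gene higher.

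Which arm carried the duration difference was tested after these values were seen. The change over 6 h in DMSO differed between 6 and 3 days for 372 genes (2.54%; 137 higher, 235 lower), and the change in STM2457 differed for 16 (0.109%; 10 higher, 6 lower). In DMSO the amino acid response genes lost more at 6 days, with 19 of 23 lower (1.6% of all genes) and a median change of -1.51 against -0.49 at 3 days; in STM2457 1 was higher and 1 lower (0.0682% and 0.0409%), with medians of 0.027 and -0.15. Of the tRNA synthetases 12 were lower in DMSO at 6 days, and of the cholesterol genes 12 were higher (0.934%). ASNS changed by -1.03 over 6 h in DMSO at 6 days and by 0.63 at 3 days, and by 0.33 and 0.60 in STM2457. HMGCS1 changed by 1.64 and 0.35 in DMSO and by 0.42 and 0.49 in STM2457. Of the 13 mitochondrially encoded transcripts 6 were higher in STM2457 at 6 days (0.0682%) and 1 was lower in DMSO. Their median change was 0.040 at 3 days and -0.11 at 6 days in DMSO, and -0.16 and 0.20 in STM2457.

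In Kelly cells treated for 6 days 84 of 17343 genes were called in the joint fit of all 48 libraries (0.484%; 37 slower, 47 faster), in which NGP had 277 (1.6%). Of the 199 slower NGP genes 7 were slower and 9 faster in Kelly, out of the 37 and 47 there. Over the 14661 genes tested in NGP the shares were 0.252% and 0.321%. Of the 173 faster NGP genes 3 were slower and 3 faster in Kelly. The line difference itself passed the test for 174 genes (1%), 98 higher and 76 lower in NGP. The amino acid response genes had 15 members higher in NGP (0.565% of all genes) and none lower, with a median in Kelly of -0.21, and the histones had 12 higher and none lower, with a Kelly median of -0.62. ASNS differed by -0.20 in Kelly and H2AC13 by -1.58. Of the cholesterol, glycolysis and heat shock genes 4, 4 and 5 were lower in NGP (0.438%).

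**Figure D5:**
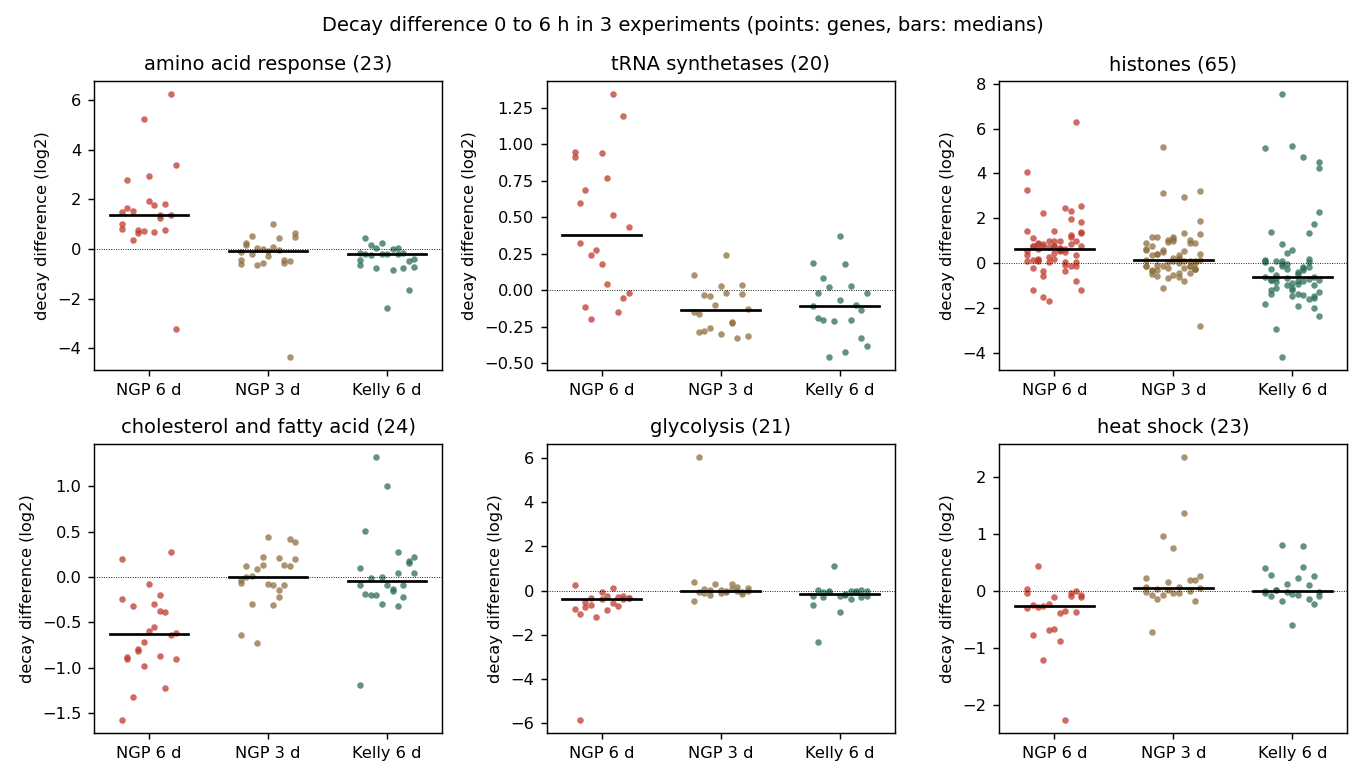
Decay difference (log2, STM2457 minus DMSO, 0 to 6 h) of the members of 6 gene lists in NGP after 6 days, NGP after 3 days and Kelly after 6 days; points are genes and bars medians. The amino acid response list has medians of 1.38, -0.083 and -0.21 in this order and the cholesterol list of -0.63, 0.0049 and -0.047.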

How the data were processed

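Poly(A) RNA of the 12 NGP libraries at 6 days was counted together with the other 36 libraries. The authors deposited whole-number counts of fragments per gene, made with featureCounts 1.5.3 on the protein-coding genes of GENCODE 33 (19923 gene names) and 92 ERCC spike-in RNAs, per the file headers. FastQC 0.11.5, Trimmomatic 0.36, HISAT2 2.1.0, Subread 1.5.3 and GRCh38 are named in the submitters' processing notes. No header names a strand or multi-mapping option, so overlapping genes and near-identical copies can share or lose reads.

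The counts of 24 NGP libraries in 12 groups were fitted with edgeR 4.0.16 in R 4.3.3 (TMM scaling, filterByExpr with a minimum count of 10 and a minimum total of 15, quasi-likelihood test, Benjamini-Hochberg adjustment over all 14661 genes, threshold 0.05), all groups sharing 1 estimate of the spread. A second fit of all 48 libraries gave the comparison with Kelly. CPM values use TMM library sizes, and an error after a log2 value is its standard error from that fit. On simulated data with the real means the test found 61% of 100 genes changed 2-fold and 94% of 100 genes changed 4-fold. It called 5 of 14103 unchanged genes. The changed genes were drawn from those averaging at least 10 CPM over the 24 libraries, and the simulated spread depended on abundance alone. Over the 12 libraries at 6 days 62.6% of tested genes averaged that much, so these shares do not hold for all of them.

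Total counts were 11139550 to 21942238 per library. The libraries of a group differed by more than counting noise (chi-square per degree of freedom 8.99 to 15.4), so none was counted as a repeat of another. Members and gene lists were chosen with earlier results of these data known. Text names METTL3, MYCN, the 12 slower and 12 faster genes with the largest change that passed the test, averaged 10 CPM or more and had a fragment in each library and the same direction over 0 to 3 h, up to 3 called members of each list by p, and the 2 genes with the smallest p against 3 days and against Kelly. CHAC1, SLC7A11, ATF4, DDIT3, H1-2 and SQLE and further list members given with a value alone were chosen after their values were seen, as were the separate tests of the DMSO and STM2457 changes between durations and the counts of GGACT. Alternatives were RLE, library size, ERCC and long-lived-transcript scaling, no filter, DESeq2 1.42.0, limma-voom (limma 3.58.1), fewer libraries in the fit, a replicate block, removal of a length trend, and time as a linear term. With 1 library left out of the NGP fit the filter kept more genes, 15599 to 15798 against 14661. Promoters came from the RefSeq table of GRCh38.p14 and transcripts from GENCODE 44. Motif positions count back from the gene start in the RefSeq table, which can differ from that of the counted gene model. Some items that the rule names are withheld and not reported here.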

Additional observations from a re-analysis of the deposited data

Results flagged for a closer look

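The decay difference between STM2457 and DMSO was not the same after 6 as after 3 days of treatment for 152 genes by edgeR's test of the difference. DDR2, the collagen receptor kinase, had a log2 decay difference higher by 1.31 at 6 days, and HSP90AA1, the inducible HSP90, had one that was lower (-0.70).

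Between NGP and Kelly at 6 days the decay difference differed for 174 genes by the same test. HSP90AA1 was lower in NGP by a log2 value of -0.82 (NGP minus Kelly), and HSPA8, the constitutive HSC70, by -1.12. All of these are results of the interaction test, adjusted over all genes. The labels give no dates or batches, so a batch that goes with line or duration cannot be told apart from them.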

How the results depend on the processing

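The 372 genes of the 6 h decay difference became 353 with library size only, 378 with RLE and 424 with the replicate block, but 593 with DESeq2, 2592 with ERCC scaling, 676 with scaling to long-lived transcripts and 40 with time as a linear term in the fit of the 12 libraries alone, which tested 14059 genes and called 308 with separate times. Over 0 to 3 h the 11 genes became 32 with ERCC and 22 with long-lived scaling, 28 with no filter, 24 with DESeq2, 5 with the libraries of the same duration only, 21 with the replicate block and 6 with the length trend removed. Over 3 to 6 h the 210 genes became 1329 with ERCC scaling and 364 with DESeq2. The change in DMSO had 9876 genes with ERCC and 8615 with long-lived scaling, and the change in STM2457 7096 with the latter. The STM2457 effect at 6 h had 4650 and 2098 genes under these scalings. The difference from 3 days had 446 and 370 under them and 274 with DESeq2, and that from Kelly 424 and 274, with 265 under no filter and 110 with limma-voom.

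Leaving out single libraries gave 309 to 427 genes for the 6 h decay difference, 13 to 29 over 0 to 3 h, 166 to 296 over 3 to 6 h, 4389 to 5433 for the DMSO change, 3766 to 4865 for the STM2457 change, 814 to 1316 at 0 h, 915 to 1451 at 6 h, 153 to 247 against 3 days and 181 to 231 against Kelly; a group with 1 library left is assumed to vary like the others. Over all named genes and settings, 1852 values kept their direction and their side of the threshold, 251 lost the call, 7 gained it and 6 reversed. The reversed ones, all with ERCC scaling, were IGF2 (0.15), MCM4 (0.15), NEFH (0.13), NPM1 (0.063), RPL7A (0.17) and STMN2 (0.011). Of the genes in the report, TRIB3, RPS29, H2AC13, H4C9, CABP7, SAMD11, HUNK, NDC80, CCNB2 and NEFH were not called with limma-voom. RPS29, H4C9 and IGF2 were not called with DESeq2. With time as a linear term the calls lost included ASNS, GARS1, EIF2S2, DDR2, JUN, ATF3, SLC7A11 and MT-ND2. Those kept included SLC7A5, PSAT1, HMGCS1, ENO1, LDHA, HSP90AA1 and HSPA8. The cause of these changes was not tested.

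Replicate numbers do not pair the libraries: deviations of same-numbered libraries correlated at -0.0203 to 0.0791 over 9525 genes, so the replicate block shares only a number. Each group has 2 libraries, and no setting adds more.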
